A study of Homo sapiens with 30 samples.

Results

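The 9 genes described here are transcriptional targets of the tumor suppressor p53 together with MDM4, an inhibitor of p53. All were measured in SH-EP neuroblastoma cells with and without exogenous MYCN and with and without the CDK9/2 inhibitor CYC065. They were chosen by symbol, with earlier results of these data known, as the rows MDM2, MDM4, CDKN1A, GDF15, SESN1, FAS, TNFRSF10B, ZMAT3 and TP53I3 among the 26228 genes of the expression table. All 9 were detected in all 30 libraries, and all 9 were among the 11575 genes that entered the tests because their mean over all libraries reached 1 FPKM. FPKM are fragments scaled to transcript length and library size, so that levels of different genes can be compared per length.

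SH-EP is an established human neuroblastoma (NB) line of mesenchymal character. The study compared parental SH-EP with 4 stable lines made from it by retroviral transfer of a MYCN transgene under an exogenous promoter, carrying WT MYCN, T58A, S62A or the double mutant T58A S62A. The changed residues are phosphorylation sites of the MYCN degradation signal. Each line received DMSO, the vehicle, or 1 µM CYC065 for 6 hours, and each of the 10 groups had 3 RNA-Seq libraries. Each MYCN construct was represented by 1 line, so construct and line cannot be told apart, and the sources used here do not say whether the 3 libraries of a group came from separate cultures. The p-values therefore measure the spread between libraries.

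p53 is a transcription factor that is held at low levels by its own target MDM2, a ubiquitin ligase, and by the MDM2-related protein MDM4, which masks its activation domain. Stress that frees p53 from these inhibitors raises transcripts for growth arrest, death receptors and metabolic adjustment. CDK9 releases paused RNA polymerase II into elongation, and its inhibition lowers synthesis of most mRNAs, short-lived ones soonest. Many NB cells keep p53 intact at diagnosis, and MYCN itself is known to raise both p53 and MDM2 transcription. These points are background and not results of the libraries described here.

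The MYCN transcript checked the labels. It was listed at 0 in all 6 SH-EP libraries and lay between 5.08 and 20.1 FPKM in the 24 libraries of the MYCN lines. The mesenchymal markers PRRX1, SNAI2, FN1 and VIM were present in all libraries, whereas the adrenergic markers PHOX2A and DBH were listed at 0 in 30 and 29 libraries, and HAND2 and GATA3 were expressed. FN1 lay between 301 and 530 FPKM in SH-EP and between 27.0 and 76.2 FPKM in the MYCN lines, so the state of the lines differed beyond p53 targets, and its part in the line comparisons was not tested. Markers of blood, endothelial, epithelial and liver cells stayed at or below 0.327 FPKM. Between 40.6% and 45.8% of genes were listed at 0 per library. Read counts are not part of the table, so the sequencing depth behind a value is unknown. The 6 SH-EP libraries carried index sequences that also tagged MYCN-line libraries, so each was sequenced apart from a MYCN-line library with the same index. The labels name no pool, so a part of the sequencing pool in comparisons with SH-EP cannot be told apart from that of the line.

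Spike-in RNA had been added in proportion to cell number, and 2 scales are used throughout. On the deposited scale a value is a share of each library's fragments, scaled to transcript length. On the spike-in scale a factor per library set the median of 55 spike-ins equal. That makes a value proportional to transcripts per cell only where cell counts and spike-in addition were exact, which was not tested. The factor moves all genes of a library together. In DMSO its log2 mean was 1.68 in SH-EP and between -0.29 and 0.84 in the MYCN lines. Its SD within groups ran from 0.03 in T58A with CYC065 to 0.40 in T58A in DMSO. The median of the 11575 tested genes changed with CYC065 by -1.24 on the log2 scale over the MYCN lines with spike-in scaling, and by 0.08 as deposited. In SH-EP the corresponding medians were -1.08 and 0.15. The FPKM of a library summed to between 415637 and 496771 in DMSO and between 667866 and 761639 in CYC065. A deposited value is therefore not a share of transcripts, and deposited changes with CYC065 include this shift. In bulk cells, fewer cells that make a transcript and less of it per cell cannot be told apart. Each change below is given on both scales where the direction or the call depends on it.

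Where the promoters of these genes carry p53 recognition letters is shown first, because the 9 genes are grouped around p53. RefSeq promoter windows on GRCh38.p14, from 250 bases before to 50 after a start site, were available for 8 of the 9 genes, in 16 windows. A full p53 site was taken as 2 p53 half-sites of 10 bases in a row with no spacer and at most 3 differences in 20 bases, on either strand, a tolerance chosen after the windows were seen. It was found in 5 windows of 4 genes, MDM2, GDF15, SESN1 and FAS. Of all 35116 windows, 5.20% held such a site, and 6.63% held a half-site with no difference. In the windows below the capitals mark the full sites.

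MDM2, chr12:68808767-68809066, plus strand, the second promoter of the gene inside its transcribed region: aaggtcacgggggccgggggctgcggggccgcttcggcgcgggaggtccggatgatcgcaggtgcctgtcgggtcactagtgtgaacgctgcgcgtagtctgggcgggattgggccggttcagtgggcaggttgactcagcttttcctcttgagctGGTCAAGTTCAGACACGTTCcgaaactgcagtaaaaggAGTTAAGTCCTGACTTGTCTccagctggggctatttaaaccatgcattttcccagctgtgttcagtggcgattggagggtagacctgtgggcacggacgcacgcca
GDF15, chr19:18385908-18386207, plus strand: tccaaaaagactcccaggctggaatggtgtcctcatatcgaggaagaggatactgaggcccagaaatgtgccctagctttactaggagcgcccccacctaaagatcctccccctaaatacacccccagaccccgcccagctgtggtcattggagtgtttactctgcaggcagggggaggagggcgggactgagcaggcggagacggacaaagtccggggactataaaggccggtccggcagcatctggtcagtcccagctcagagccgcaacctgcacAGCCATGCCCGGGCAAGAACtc
SESN1, 60 bases around the site of the window chr6:109008939-109009238, minus strand: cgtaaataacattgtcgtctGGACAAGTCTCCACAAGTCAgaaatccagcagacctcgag
FAS, 60 bases around the site of the window chr10:88991181-88991480, plus strand: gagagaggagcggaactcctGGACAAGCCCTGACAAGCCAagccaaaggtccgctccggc

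The MDM2 window held a pair of sites beginning at positions -94 and -56 from the start site, with 2 and 3 differences from the pattern. The GDF15 site began at position 29 with 3 differences, downstream of a TATA box, TATAAA on either strand, at position -29, a motif that 11.5% of all windows held. The SESN1 site began at -49 with 3 differences and the FAS site at -122 with 2, and both contained a half-site with no difference. The E-box CACGTG, a sequence that MYC proteins bind, was in 0 of the 16 windows and in 7.26% of all windows. The windows of MDM4, CDKN1A, ZMAT3 and TP53I3 held no full p53 site, which says only that these letters are not in those windows. The 4 genes with a match did not share a response: GDF15 and SESN1 rose with CYC065 on both scales, whereas MDM2 and FAS did not.

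**Figure D1:**
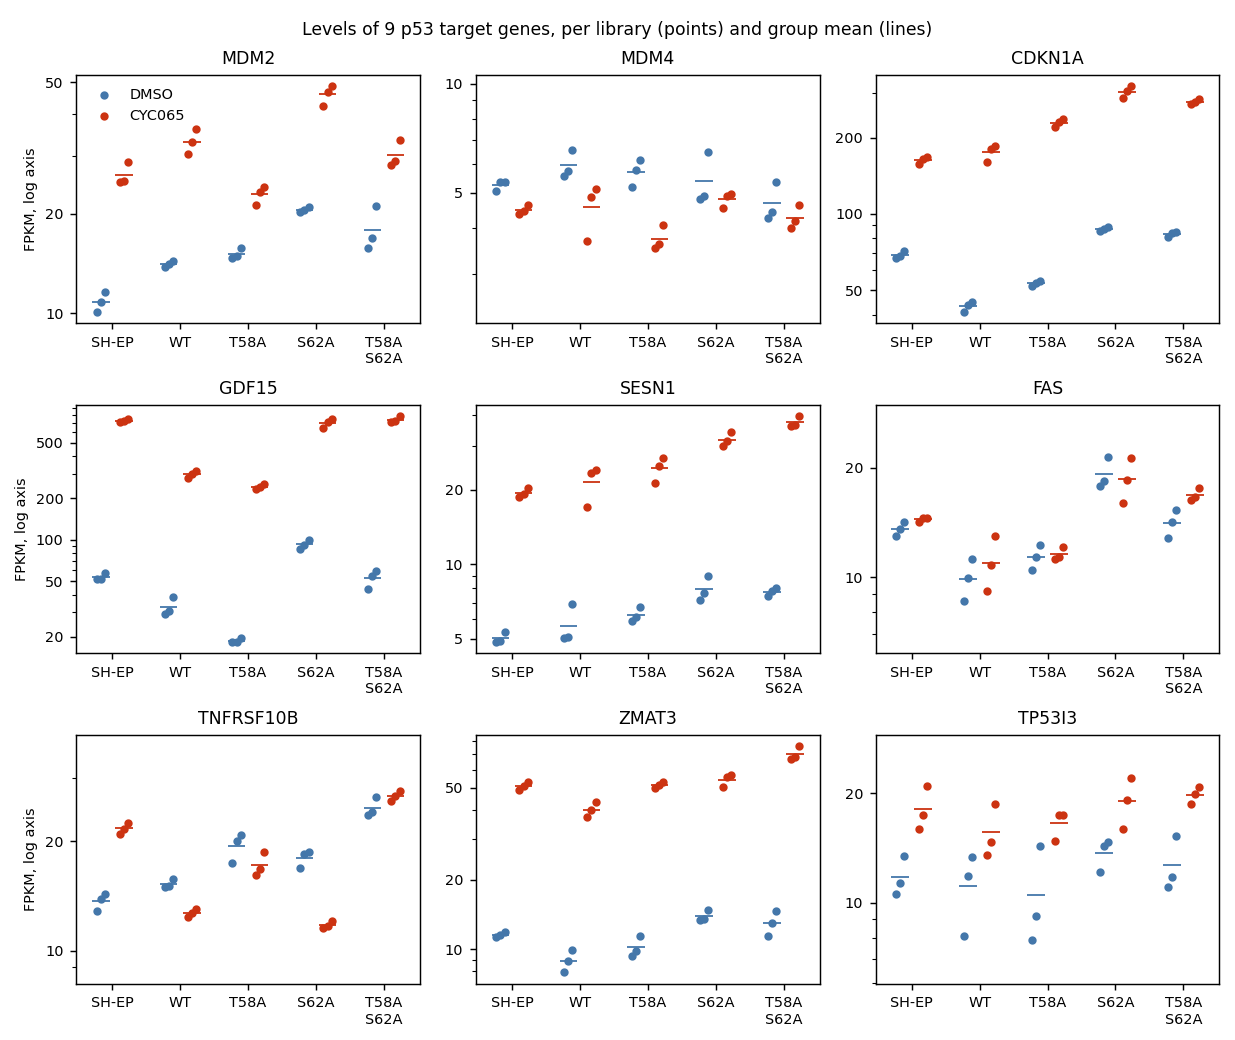
Levels of the 9 genes in FPKM as deposited (log axis), by line, for DMSO (blue) and CYC065 (red). Each point is 1 library and each line a group mean of 3. GDF15, CDKN1A, SESN1, ZMAT3, MDM2 and TP53I3 lay higher in every CYC065 library than in every DMSO library of the same line, whereas FAS overlapped in 3 of 5 lines and the mean of MDM4 was lower with CYC065 in each line. Such separation was not counted over all genes. On this scale 37% (WT) to 42.7% (SH-EP) of all tested genes were called higher with CYC065.

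With CYC065, transcripts of the secreted factor GDF15, the RNA-binding protein ZMAT3, the mTORC1 inhibitor SESN1 and the cell-cycle inhibitor CDKN1A rose over the 4 MYCN lines on both scales, whereas MDM4 and the TRAIL receptor TNFRSF10B fell on both. With libraries centred on their median the TNFRSF10B change over these lines was -0.06 and did not pass (adjusted p = 0.0811, limma). The fold changes over the MYCN lines after spike-in scaling were 4.08 for GDF15, 1.81 for ZMAT3, 1.58 for SESN1 and 1.46 for CDKN1A. MDM2 and the oxidoreductase gene TP53I3 fell with spike-in scaling and rose as deposited, and the death receptor FAS fell with spike-in scaling and did not pass the test as deposited. This comparison asked how inhibition of CDK9/2 moved p53 targets in cells with and without MYCN. After spike-in scaling 1.71% of all tested genes were called higher and 94.1% lower over the MYCN lines (limma, Benjamini-Hochberg adjusted p under 0.05), against 4 and 5 of the 9 genes. As deposited, 45.4% of tested genes were higher and 39.6% lower, against 6 and 2 of the 9. The median change of the 9 genes was -0.43 on the log2 scale with spike-ins and 0.93 as deposited, beside -1.24 and 0.08 for all tested genes.

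GDF15 encodes a cytokine of the TGF-β superfamily that stressed cells secrete. In SH-EP its level was 51.8, 52.1 and 57.7 FPKM in DMSO and 705, 725 and 741 in CYC065. In the WT MYCN line it was 29.2, 30.7 and 38.9 in DMSO and 278, 297 and 313 in CYC065. In T58A it was 18.2, 18.3 and 19.6 in DMSO and 232, 240 and 253 in CYC065. All CYC065 libraries of these lines lay above all of their DMSO libraries. In S62A the values were 85.9, 91.5 and 100.1 in DMSO and 637, 706 and 749 in CYC065, and in T58A S62A they were 43.995, 54.4 and 59.8 in DMSO and 707, 720 and 782 in CYC065. As deposited, SH-EP, S62A and T58A S62A were high after CYC065 and WT and T58A low, whereas the spike-in scaled means were 971 in SH-EP, 631 in T58A S62A, 203 in S62A, 173 in T58A and 123 in WT. S62A differed from WT by 1.23 on the log2 scale of deposited FPKM (limma adjusted p = 1.28e-09). The spike-in scaled change on the log2 scale was 2.73 ± 0.21 (SE) in T58A S62A, 2.49 ± 0.21 in T58A and 2.48 ± 0.21 in SH-EP, and it was 1.48 ± 0.21 in WT and 1.41 ± 0.21 in S62A. All 5 passed the test on both scales, and over the MYCN lines GDF15 held rank 98 from the highest of 11575 genes.

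ZMAT3 encodes a zinc-finger protein that binds AU-rich RNA. In SH-EP its level was 11.3, 11.5 and 11.9 FPKM in DMSO and 48.8, 51.1 and 53.2 in CYC065. In WT MYCN it was 7.93, 8.85 and 9.96 in DMSO and 37.3, 40.04 and 43.4 in CYC065. The highest deposited CYC065 values were those of T58A S62A, 66.9, 68.1 and 75.8, above 11.4, 12.9 and 14.6 in DMSO. After spike-in scaling the mean was higher in SH-EP, 68.8 against 60.2. No line had overlapping groups on either scale. The spike-in scaled log2 change ran from 0.46 ± 0.20 in S62A to 1.35 ± 0.20 in T58A S62A and passed the test in all 5 lines, with 0.86 ± 0.10 over the MYCN lines (adjusted p = 8.8e-09, limma).

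SESN1, a sestrin that restrains mTORC1, followed a like course. Its SH-EP values were 4.85, 4.91 and 5.34 FPKM in DMSO and 18.7, 19.2 and 20.4 in CYC065. In T58A S62A they were 7.44, 7.79 and 8.05 in DMSO and 36.2, 36.7 and 39.7 in CYC065. As deposited, no line had overlapping groups. The WT MYCN line was the exception after spike-in scaling, where the groups overlapped and the change of 0.23 ± 0.20 did not pass the test (adjusted p = 0.27, limma). Over the MYCN lines the change was 0.66 ± 0.10 with spike-ins and 2.02 as deposited.

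CDKN1A encodes p21, an inhibitor of cyclin-dependent kinases and the classic arrest target of p53. In SH-EP its level was 66.7, 67.98 and 71.5 FPKM in DMSO and 158, 164 and 168 in CYC065. In WT MYCN it was 40.96, 43.8 and 44.9 in DMSO and 160, 180 and 186 in CYC065. In T58A it was 51.8, 53.1 and 54.5 in DMSO and 221, 231 and 236 in CYC065. The deposited level of CDKN1A therefore rose in each of these lines without overlap. In S62A it was 85.5, 87.1 and 88.5 in DMSO and 286, 305 and 320 in CYC065, and in T58A S62A 81.2, 83.9 and 84.5 in DMSO and 272, 276 and 283 in CYC065. On the spike-in scale the change passed the test in T58A (0.91 ± 0.19) and T58A S62A (0.65 ± 0.19), and was 0.32 ± 0.19 in WT, 0.29 ± 0.19 in S62A and -0.02 ± 0.19 in SH-EP (1.25 as deposited). Groups overlapped in the latter 3 lines on that scale.

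**Figure D2:**
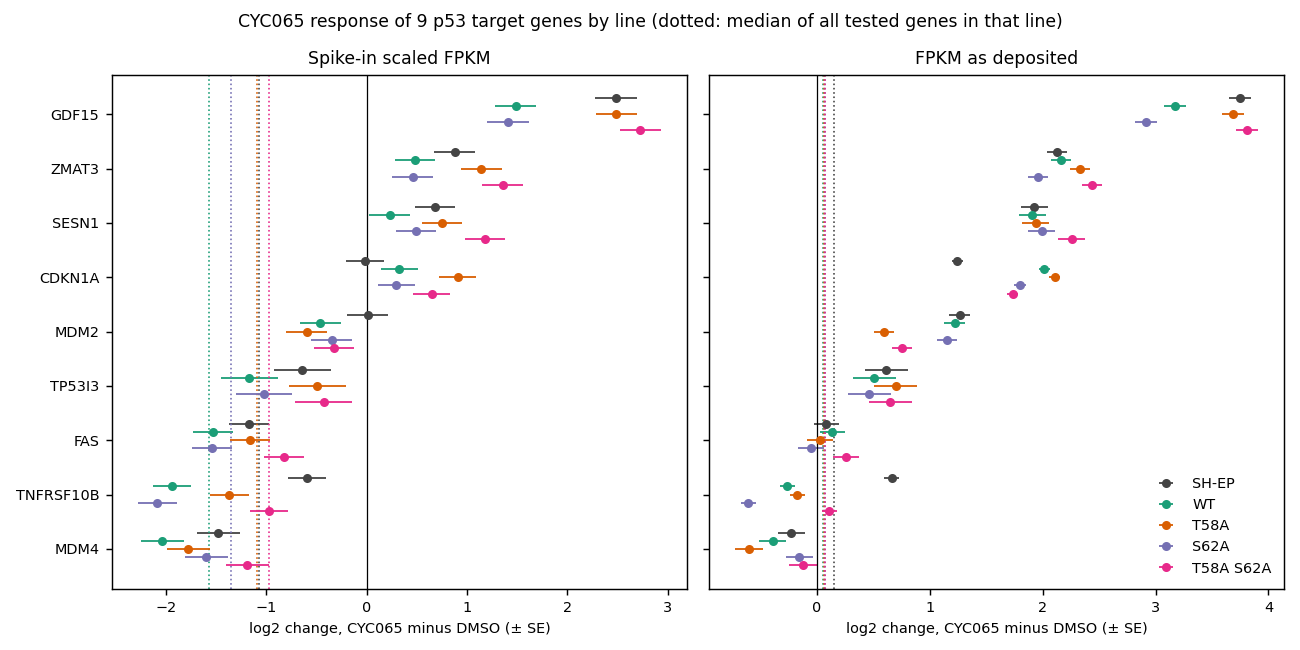
Log2 change with CYC065 (horizontal axis, ± SE of the fit) for each gene and line, after spike-in scaling (left) and as deposited (right), with dotted lines at the median of all tested genes in that line. GDF15 lies farthest to the right in every line on both scales, and MDM4, TNFRSF10B and FAS lie near or below the dotted medians except TNFRSF10B in SH-EP, 0.48 above the median after spike-in scaling.

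The feedback inhibitors moved apart. MDM2 in SH-EP was 10.1, 10.8 and 11.6 FPKM in DMSO and 24.9, 25.1 and 28.6 in CYC065. In WT MYCN it was 13.8, 14.1 and 14.4 in DMSO and 30.3, 32.9 and 36.004 in CYC065. In S62A, the line with the highest MDM2 level as deposited and the lowest after spike-in scaling (means in DMSO 16.998 against 34.9 in SH-EP), it was 20.3, 20.5 and 20.996 in DMSO and 42.4, 46.7 and 48.8 in CYC065. As deposited MDM2 rose in all 5 lines, by 0.59 on the log2 scale in T58A to 1.26 in SH-EP. With spike-in scaling it passed the test as lower in WT (-0.46 ± 0.20) and T58A (-0.60 ± 0.20) and was 0.01 ± 0.20 in SH-EP, -0.35 ± 0.20 in S62A and -0.32 ± 0.20 in T58A S62A. Over the MYCN lines it stood 0.80 above the median of all genes on that scale, at rank 759.

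MDM4 had the lowest mean of the 9 genes in DMSO in 3 of 5 lines, SESN1 being lower in SH-EP and WT, and lay between 4.25 and 6.58 FPKM over the 15 DMSO libraries, and between 3.53 and 5.12 in CYC065. Its spike-in scaled change was between -2.03 ± 0.21 in WT MYCN and -1.19 ± 0.21 in T58A S62A, and passed the test in all 5 lines. As deposited it fell in WT and T58A, by 0.39 and 0.60 on the log2 scale, and the other 3 lines did not pass. Over the MYCN lines the change was -0.41 relative to the median of all genes.

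The ratio of MDM2 to MDM4 within a library does not depend on the scaling between libraries, and was chosen after the values were seen. In DMSO it was 2.06 ± 0.21 (SD, n = 3) in SH-EP, 2.37 ± 0.15 in WT and 2.66 ± 0.33 in T58A, and it was 3.87 ± 0.56 in S62A and 3.81 ± 0.11 in the double mutant. With CYC065 it was 5.83 ± 0.31, 7.33 ± 0.78, 6.17 ± 0.84, 9.55 ± 0.32 and 7.04 ± 0.14 in the same order. Every CYC065 library had a higher ratio than every DMSO library, with 5.22 the lowest CYC065 value and 4.26 the highest DMSO value. These ratios are given as a description, with no test.

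The next members are death receptors. FAS, the receptor for FAS ligand, was 13.01, 13.6 and 14.2 FPKM in SH-EP in DMSO and 14.2, 14.5 and 14.6 in CYC065. As deposited it was highest in S62A, at 17.9, 18.4 and 21.4 in DMSO and 15.98, 18.5 and 21.3 in CYC065, so these groups overlapped. With spike-in scaling the DMSO mean was highest in SH-EP, 43.8 against 15.96 in S62A. As deposited it passed the test only in T58A S62A among the 5 lines, by 0.26 on the log2 scale. With spike-in scaling FAS fell in all 5 lines, from -1.54 ± 0.20 in S62A to -0.82 ± 0.20 in T58A S62A, and over the MYCN lines its change of -1.26 lay 0.03 below the median of all genes.

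TNFRSF10B encodes DR5, a receptor for the death ligand TRAIL. In SH-EP its level was 12.9, 13.9 and 14.4 FPKM in DMSO and 20.9, 21.7 and 22.5 in CYC065, without overlap. In WT MYCN it was 14.97, 15.1 and 15.8 in DMSO and 12.4, 12.7 and 13.1 in CYC065. In S62A it was 16.9, 18.5 and 18.7 in DMSO and 11.6, 11.7 and 12.1 in CYC065. As deposited the transcript thus rose in SH-EP (0.66) and fell in WT (-0.26), T58A (-0.17) and S62A (-0.61), while T58A S62A, with 23.7, 24.1 and 26.5 in DMSO and 25.8, 26.7 and 27.6 in CYC065, did not pass the test (0.11). With spike-in scaling it fell in all 5 lines, from -0.60 ± 0.19 in SH-EP to -2.08 ± 0.19 in S62A. The SH-EP call was lost when spike-ins of at least 50 FPKM set the scale (-0.54, adjusted p = 0.0613, limma).

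The ratio of FAS to TNFRSF10B, also chosen after the values were seen and given with no test, had a lower mean with CYC065 in SH-EP and a higher one in all 4 MYCN lines. In SH-EP it was 0.996 ± 0.080 (SD, n = 3) in DMSO and 0.666 ± 0.018 in CYC065. In S62A it was 1.07 ± 0.17 in DMSO and 1.58 ± 0.20 in CYC065, and the groups did not overlap in either line. In the other 3 lines the groups overlapped, with means of 0.651 and 0.861 in WT, 0.586 and 0.675 in T58A, and 0.572 and 0.632 in T58A S62A.

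TP53I3, a quinone oxidoreductase-like enzyme linked to oxidative stress, varied most between libraries of a group. Its DMSO libraries lay between 7.87 and 15.2 FPKM and its CYC065 libraries between 13.5 and 22.0. As deposited it rose in all 5 lines, by 0.47 on the log2 scale in S62A to 0.70 in T58A. With spike-in scaling it passed the test as lower in WT (-1.17 ± 0.28), S62A (-1.02 ± 0.28) and SH-EP (-0.64 ± 0.28), the last with an adjusted p of 0.041 (limma) that was lost without 5 of the 6 SH-EP libraries taken singly, where it lay between 0.053 and 0.196. T58A and T58A S62A did not pass, at -0.49 and -0.43.

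**Figure D3:**
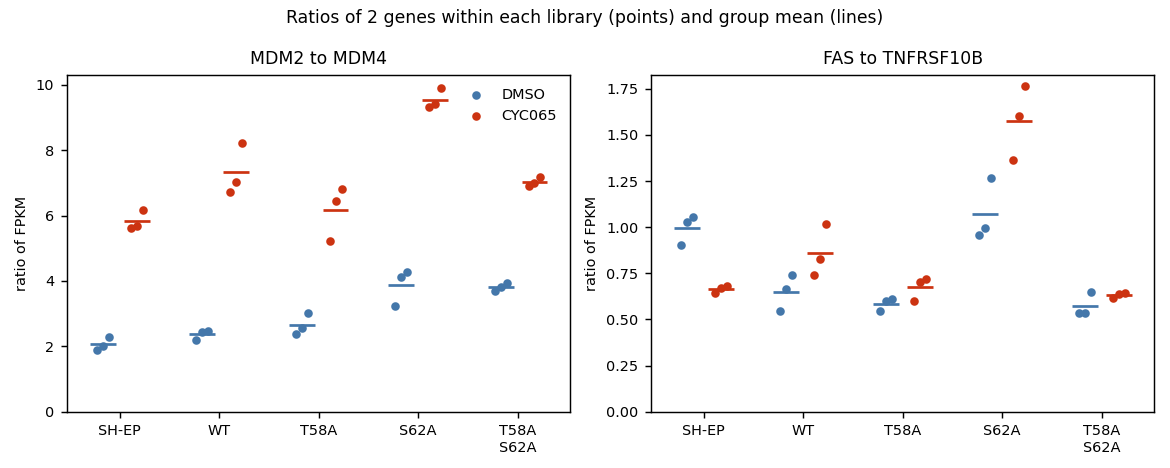
Ratio of MDM2 to MDM4 (left) and of FAS to TNFRSF10B (right) within each library, by line, for DMSO (blue) and CYC065 (red), with group means as lines and linear axes from 0. The MDM2 to MDM4 ratio is higher in all CYC065 libraries than in all DMSO libraries, and the FAS to TNFRSF10B ratio falls in SH-EP, from 0.996 to 0.666, and has a higher mean with CYC065 in the 4 MYCN lines, without overlap in S62A (1.58 against 1.07).

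By line and scale together, the 9 genes in 5 lines gave 16 changes called higher and 20 lower after spike-in scaling, and 32 higher and 5 lower as deposited. After spike-in scaling 3 of the 9 were higher and 4 lower in SH-EP, where 0.890% of all tested genes were higher and 76.3% lower. In WT it was 2 and 5, beside 0.769% and 93.7% of all genes, and in T58A 4 and 4, beside 1.24% and 84.5%. In S62A it was 3 and 4, beside 0.959% and 90.2%, and in the double mutant 4 and 3, beside 1.84% and 76.4%. As deposited, 7 were higher and 0 lower in SH-EP (42.7% and 33.5% of all genes), 6 and 2 in WT (37% and 34.2%) and 6 and 2 in T58A (38.1% and 33.3%). The counts were 6 and 1 in S62A (38.8% and 34.6%) and 7 and 0 in the double mutant (38.6% and 34.2%). The 5 comparisons used separate libraries.

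Whether the response depended on MYCN was tested as the difference between the response of each MYCN line and that of SH-EP, 4 contrasts that share the SH-EP libraries. After spike-in scaling TNFRSF10B fell further than in SH-EP: the difference of the log2 changes was -1.34 ± 0.27 in WT (adjusted p = 0.0062, limma) and -1.49 ± 0.27 in S62A (adjusted p = 0.001). Over the MYCN lines it differed by -0.99, with a 95% interval from -1.43 to -0.56. GDF15 rose less than in SH-EP, with a difference of -1.001 ± 0.29 in WT (adjusted p = 0.037) and -1.08 ± 0.29 in S62A (adjusted p = 0.030). In the 36 pairs of gene and line these were the 4 calls, all lower, where 14.1% of tested genes were called lower in WT, 1.72% in S62A, 0.311% in T58A and 0.190% in the double mutant. Called higher were 0 of the 36, where 1.82% of tested genes were in WT, 3.11% in S62A, 2.35% in T58A and 5.27% in the double mutant. Over the MYCN lines 1 of the 9 was lower and 0 higher, where 1.81% and 4.22% of tested genes were. The median of all genes in this contrast was -0.51 in WT and -0.28 in S62A. Loess through the spike-ins gave 1 lower and 1 higher call, spike-ins of at least 50 FPKM gave 1 lower call, and the lower count was 2 when any 1 of 4 SH-EP libraries was left out.

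As deposited, the difference of TNFRSF10B from SH-EP was negative and past the test in all 4 lines (-1.27 in S62A, -0.92 in WT, -0.83 in T58A and -0.55 in the double mutant), and that of CDKN1A was positive in all 4 (0.86 in T58A, 0.77 in WT, 0.55 in S62A and 0.49 in the double mutant). CDKN1A did not pass with spike-in scaling in any of the 4 lines, with an estimate of 0.56 over the MYCN lines and a 95% interval from 0.13 to 0.99. On the deposited scale 10.4% of genes had a called positive difference and 18.1% a negative one in WT, 9.9% and 14% in T58A, 10.9% and 13.7% in S62A, and 10.6% and 14.8% in the double mutant, where 1 of the 9 was positive and 2 negative in each line. Over the MYCN lines 1 was positive and 3 were negative, TNFRSF10B, MDM2 and GDF15, beside 13% and 20.3% of genes. The intervals for SESN1 (-0.48 to 0.45) and ZMAT3 (-0.48 to 0.45) over the MYCN lines on the spike-in scale leave differences in either direction possible.

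In DMSO, the lines with MYCN were compared with SH-EP as deposited, to ask whether exogenous MYCN went with other levels of p53 targets. MDM2, TNFRSF10B and SESN1 were higher over the 4 MYCN lines, by 0.62 ± 0.07, 0.47 ± 0.05 and 0.43 ± 0.09 on the log2 scale, whereas GDF15 was lower by 0.38 ± 0.08 and CDKN1A by 0.11 ± 0.04. With spike-in scaling all 9 were lower over the MYCN lines, MDM2 at -0.63, TNFRSF10B at -0.78, SESN1 at -0.82 and CDKN1A at -1.37, as were 91.4% of tested genes, with 1.09% higher, whose median was -1.18 on that scale and 0.06 as deposited. MDM2, TNFRSF10B and SESN1 thus stood above the median of all genes by 0.56, 0.41 and 0.37 as deposited. Of all tested genes 34.6% were called higher and 26.3% lower as deposited, against 3 and 2 of the 9. The CDKN1A call over the MYCN lines was lost without 1 SH-EP library (-0.08, adjusted p = 0.168, limma).

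The direction differed between MYCN lines. CDKN1A was lower than in SH-EP in WT (-0.67 ± 0.05) and T58A (-0.37 ± 0.05) and higher in S62A (0.34 ± 0.05) and T58A S62A (0.28 ± 0.05), each past the test as deposited, and none of the 4 had DMSO libraries that overlapped those of SH-EP. GDF15 was lower in WT (-0.72 ± 0.10) and T58A (-1.52 ± 0.10) and higher in S62A (0.78 ± 0.10), and was -0.04 ± 0.10 in T58A S62A. MDM2 was higher in all 4 lines, from 0.38 ± 0.09 in WT to 0.92 ± 0.09 in S62A. With spike-in scaling each of these differences from SH-EP was negative. As deposited, 2 of the 9 were higher and 4 lower in WT, beside 31.6% and 22.6% of tested genes, and 3 and 2 in T58A, beside 30.9% and 23.3%. In S62A 7 were higher and 0 lower, beside 31% and 23.4%, and in the double mutant 4 and 0, beside 31.2% and 24.1%. With spike-in scaling 0 were higher in any line, and 9, 9, 9 and 6 were lower in the same order, beside 88.7%, 78%, 95.1% and 70.2% of tested genes lower and 0.985%, 1.86%, 0.38% and 2.26% higher.

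**Figure D4:**
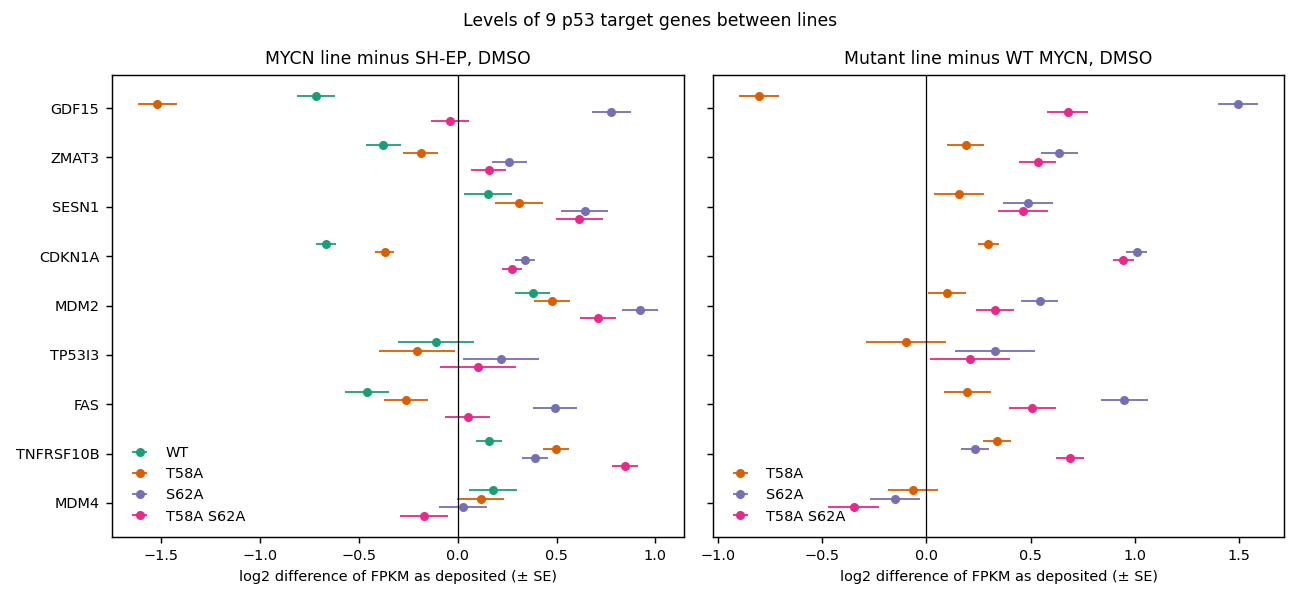
Log2 difference in DMSO as deposited (horizontal axis, ± SE of the fit) for each gene, between each MYCN line and SH-EP (left) and between each mutant line and WT MYCN (right). S62A lies to the right of WT for 8 of the 9 genes, and after spike-in scaling every gene called higher than SH-EP on the left has a difference at or below 0.01.

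Against WT MYCN in DMSO, the S62A line had higher deposited levels of 7 of the 9 genes, as did T58A S62A, whereas T58A had 2 higher and 1 lower. Of all tested genes 10.1% were higher and 14% lower in S62A, 9.43% and 14.2% in the double mutant, and 10.7% and 13% in T58A. In S62A the differences were 1.496 ± 0.10 on the log2 scale for GDF15, 1.01 ± 0.05 for CDKN1A, 0.95 ± 0.11 for FAS, 0.64 ± 0.09 for ZMAT3, 0.54 ± 0.09 for MDM2, 0.49 ± 0.12 for SESN1 and 0.23 ± 0.07 for TNFRSF10B. When the fit held only the groups compared, SESN1 (adjusted p = 0.102, limma) and TNFRSF10B (adjusted p = 0.0561) lost these calls. The TNFRSF10B call was also lost without 1 S62A library (adjusted p = 0.0539). After spike-in scaling GDF15 (0.80) was the 1 gene still called higher in S62A, and MDM4 (-0.84) and TNFRSF10B (-0.46) were lower, with the median of all genes at -0.71 on that scale, 0.181% of them called higher and 74.9% lower. MDM2 (-0.15), SESN1 (-0.20) and ZMAT3 (-0.06) were then below 0 and did not pass, so the S62A differences of these 3 genes hold for their deposited levels only.

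In T58A S62A the same 7 genes were higher than in WT on both scales: CDKN1A by 0.94 ± 0.05 as deposited and 1.37 with spike-ins, TNFRSF10B by 0.69 ± 0.07 and 1.12, GDF15 by 0.68 ± 0.10 and 1.10, ZMAT3 by 0.54 ± 0.09 and 0.96, FAS by 0.51 ± 0.11 and 0.93, SESN1 by 0.46 ± 0.12 and 0.89, and MDM2 by 0.33 ± 0.09 and 0.76. On the spike-in scale 23.3% of all tested genes were higher and 1.02% lower in that line. When the fit held only the groups compared, the higher calls over the 3 mutant lines numbered 9 in place of 16, and MDM2, GDF15, SESN1, FAS and ZMAT3 lost theirs in T58A S62A (adjusted p from 0.0571 to 0.144, limma). The MDM2 difference was also lost without 1 T58A S62A library (0.21, adjusted p = 0.0809). MDM4 was lower as deposited (-0.35, adjusted p = 0.038, limma) and 0.07 with spike-ins, and the call was lost without any 1 of 4 libraries, where it lay between -0.28 and -0.37. In T58A, CDKN1A (0.30 ± 0.05) and TNFRSF10B (0.34 ± 0.07) were higher on both scales, and GDF15 was lower as deposited (-0.80 ± 0.10) and did not pass with spike-ins (-0.50), where 8.1% of all genes were higher and 0.432% lower. On the spike-in scale the T58A and WT libraries overlapped for CDKN1A (adjusted p = 0.0427, limma) and TNFRSF10B (adjusted p = 0.0356). These 3 comparisons share the WT libraries. The MYCN level also differed between these lines, and its part was not tested.

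The order of lines in DMSO as deposited showed which neighbours differed. For CDKN1A it ran S62A, T58A S62A, SH-EP, T58A and WT, and each neighbour differed past the test except S62A and T58A S62A (0.06, adjusted p = 0.361, limma). For GDF15 it ran S62A, SH-EP, T58A S62A, WT and T58A, and SH-EP and T58A S62A did not pass (0.04, adjusted p = 0.756). For MDM2 it ran S62A, T58A S62A, T58A, WT and SH-EP, and only WT and SH-EP passed as neighbours. For TNFRSF10B, led by T58A S62A, 3 of the 4 neighbour pairs passed, and for FAS 1 did, S62A and T58A S62A. No neighbours passed for MDM4, SESN1, ZMAT3 or TP53I3.

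The wider pathway was read from a list of 40 other p53 targets, of which 32 were tested, and of 22 regulators of p53, of which 21 were. With CYC065 over the MYCN lines, 8 of the 32 other targets were higher and 23 lower after spike-in scaling, and 25 were higher and 6 lower as deposited, beside 1.71% and 94.1% of all tested genes with spike-ins and 45.4% and 39.6% as deposited. Their median was -0.64 on the spike-in scale and 0.72 as deposited, beside -1.24 and 0.08 for all tested genes. The largest rises were those of the antiproliferative gene BTG2 (2.21), the stress gene GADD45A (1.87) and BBC3, which encodes the death protein PUMA (1.05), each also higher as deposited. The largest falls were those of the repair genes XPC (-2.70) and POLH (-2.52) and of the adhesion gene NINJ1 (-1.84), each also lower as deposited. BTG2 rose from 5.03 to 36.2 FPKM in SH-EP and from 4.29 to 57.95 in WT MYCN.

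All 21 tested regulators were lower over the MYCN lines after spike-in scaling, with a median of -1.69, as were 94.1% of all genes. As deposited 6 were higher and 13 lower, beside 45.4% and 39.6% of all tested genes, with a median of -0.35. The largest falls were those of the acetyltransferase gene KAT5 (-3.83), the ubiquitin ligase gene TRIM24 (-3.31) and PPP1R13B, a p53-binding cofactor (-3.14). PPP1R13B was low, with group means from 2.81 to 3.32 FPKM in DMSO and at most 0.72 in CYC065. Its mean reached the filter of 1 FPKM only through the DMSO libraries, and the pseudocount weighs on such values. Its fall is given as description. RPL5 and RPL11, ribosomal proteins that bind MDM2, were at -0.51 and -0.50 with spike-ins and at 0.86 and 0.87 as deposited.

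**Figure D5:**
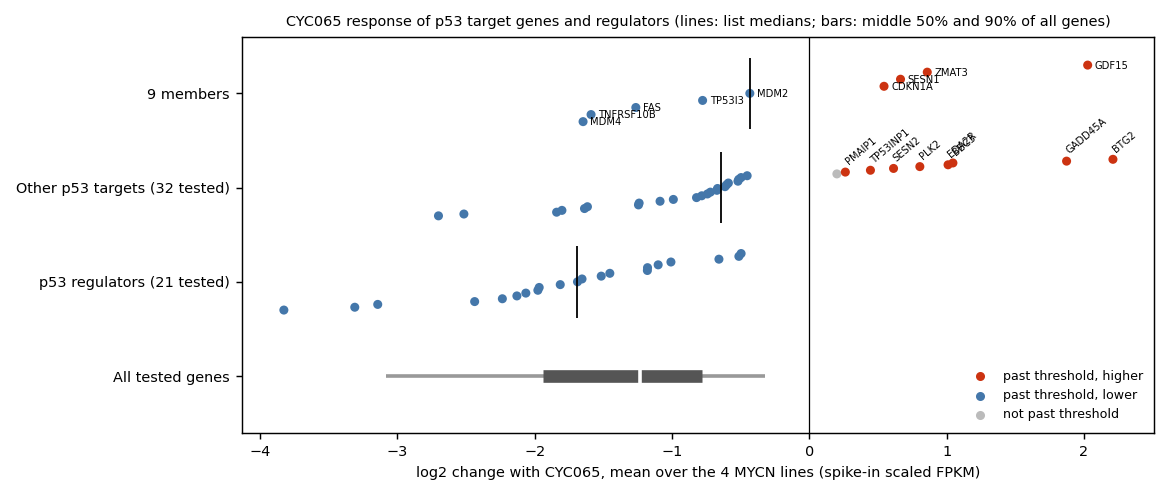
Log2 change with CYC065 over the MYCN lines after spike-in scaling (horizontal axis), for the 9 genes, 32 other p53 targets and 21 p53 regulators. Points are genes, colored by the test, black lines are list medians, and the lowest row gives the median, the middle 50% and the middle 90% of all tested genes; the regulators all lie below 0, and BTG2 (2.21) and GDF15 (2.03) lie farthest right.

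In DMSO over the MYCN lines, 20 of the 32 other targets were higher than in SH-EP and 8 lower as deposited, with a median of 0.29, whereas 1 was higher and 29 lower with spike-in scaling. Of all tested genes 34.6% were higher and 26.3% lower as deposited, and 1.09% and 91.4% with spike-ins. The largest differences up were those of the death receptor EDA2R (2.33), the nuclease AEN (1.198) and BBC3 (0.93), and those down included TRIM22 (-2.42) and TP53INP1 (-0.81). With spike-in scaling EDA2R (2.51) remained higher, and AEN (-0.06) and BBC3 (-0.30) did not pass. EDA2R was near 0 in SH-EP in DMSO, at a mean of 0.0083 FPKM, and reached 1.52 in T58A S62A, so its log2 value depends on the pseudocount. It passed the filter on low values through T58A S62A with CYC065, at a mean of 15.1 FPKM, a group outside this comparison, while no other group mean exceeded 1.64. TRIM22 and TP53INP1 were low as well, with DMSO means of 3.23 and 0.70 FPKM in SH-EP and at most 1.12 and 0.44 in the MYCN lines. Both passed that filter only with the SH-EP libraries, where they were highest (4.83 and 2.56 with CYC065). The filter thus favored genes high in SH-EP, and these falls are given as description. Of the 21 regulators, 6 were higher as deposited, led by USP7 (0.60), RPL5 (0.46) and RPL11 (0.30), and TP53BP1 (-0.37) and COP1 (-0.21) were lower, beside 34.6% higher and 26.3% lower of all tested genes, whereas all 21 were lower with spike-ins.

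Across the 30 libraries, the genes whose deposited level ran most like that of SESN1 were PMAIP1, another p53 target (Pearson r = 0.982), and DLD (0.982). For CDKN1A they were SYPL1 (0.972) and BTG2 (0.968), for ZMAT3 RBM33 (0.979) and SESN1 (0.977), for GDF15 BCAP31 (0.973) and FOSL2 (0.972), and for MDM2 OXCT1 (0.972) and TMED5 (0.970). The remaining members had weaker neighbours, MARCH7 for MDM4 (0.831), CLDN12 for FAS (0.837), DLX4 for TNFRSF10B (0.828) and AVEN for TP53I3 (0.842). Among the members themselves CDKN1A and SESN1 had r = 0.962, and MDM4 and CDKN1A had r = -0.700. These coefficients describe 30 libraries that fall into treated and untreated sets, share the table's normalization and have no test.

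On GRCh37, the build of the alignment, MDM2 lies at chr12:69201957-69239324 and MDM4 at chr1:204485507-204527248, CDKN1A at chr6:36644237-36655114 and SESN1, on the minus strand, at chr6:109305512-109416049. GDF15 lies at chr19:18485541-18499986, FAS at chr10:90750414-90775542, ZMAT3 at chr3:178677909-178790003 and TP53I3 at chr2:24300303-24308731, the latter 2 on the minus strand. TNFRSF10B is on chromosome 8. All 9 are annotated as protein-coding by GENCODE.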

How the data were processed

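RNA-Seq was measured in 30 libraries of 5 lines in DMSO or CYC065. Per the paper and the labels, ERCC spike-ins went in by cell number, and the authors aligned stranded poly(A) reads to hg19 with HISAT2, and computed FPKM with Cufflinks; the annotation is not given in the sources used here. The deposited table holds FPKM per library for 26228 genes and 92 spike-ins. Groups came from the labels and the column names.

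Log2(FPKM + 0.1) of the 11575 genes whose mean reached 1 FPKM was fitted with limma 3.58.1 (R 4.3.3; trend, 10 groups in 1 fit), with Benjamini-Hochberg adjustment over all tested genes and a threshold of 0.05. Fold changes are on this scale. Spike-in scaling used the median log2 of 55 spike-ins, those whose mean reached 1 FPKM. The study normalized FPKM to cell number with the spike-ins. Here the spike-in scale is the main one for CYC065 comparisons and an alternative for comparisons between lines, whose main scale is FPKM as deposited. The fit was tested on simulated data. Correlations within groups lay between 0.925 and 0.959 and 0 libraries were identical. Gene positions came from GENCODE lifted to GRCh37 and promoters from RefSeq (GRCh38.p14). No protein table was used here. All 9 genes are named, and of each list the 3 largest rises and falls past the test, plus the 2 genes most like each member; a few listed genes are not reported here. RPL5 and RPL11 under CYC065, the ratios and the p53 full site were chosen after values were seen. The members and lists were chosen with earlier results of these data known. Alternatives changed the scaling, pseudocount, filter, spike-ins, groups in the fit and libraries.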

Additional observations from a re-analysis of the deposited data

Results flagged for a closer look

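The response of 2 genes to CYC065 differed between lines by a test of the difference itself (limma, spike-in scaled FPKM, Benjamini-Hochberg adjusted over 11575 genes). The log2 response of TNFRSF10B minus that in SH-EP was -1.34 in WT MYCN (adjusted p = 0.00617) and -1.49 in S62A (adjusted p = 0.00102), and on FPKM as deposited the values were -0.92 and -1.27. That of GDF15 was -1.001 in WT (adjusted p = 0.037) and -1.08 in S62A (adjusted p = 0.0301), and -0.57 and -0.83 as deposited. These contrasts share the SH-EP libraries, whose index sequences also tagged MYCN-line libraries, and the part of the sequencing pool was not tested. In them 14.1% of all tested genes were called lower in WT and 1.72% in S62A, with medians of -0.51 and -0.28 (spike-in scale). Over the 9 genes and 4 lines, loess through the spike-ins gave 1 lower call in place of 4. Spike-ins of at least 50 FPKM also gave 1.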

How the results depend on the processing

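No paired analysis was possible because the columns, numbered 0 to 2, could not be tied to the replicate numbers of the labels, so a column number names a library and pairs none. MYCN lines against SH-EP gave 16 higher and 6 lower calls in 36 pairs, 0 and 33 with spike-in scaling, and 6 and 3 with a 1.5-fold limit (14 to 17 and 6 to 9 without 1 library). Spike-in scaling turned the sign of the means of MDM2 (-0.63), MDM4 (-1.21), SESN1 (-0.82), TNFRSF10B (-0.78) and TP53I3 (-1.25). As deposited the means of MDM4 (0.04) and TP53I3 (0.002) were near 0 and had not passed the test.

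Mutant lines against WT gave 16 higher and 2 lower calls, 10 higher with spike-in scaling, 9 and 1 with only the groups compared, 7 and 1 with the fold limit, and 1 lower with no filter or a mean of at least 5 FPKM, which leaves out MDM4 (15 to 17 and 1 to 2 without 1 library). Spike-in scaling turned the sign in S62A for MDM2 (-0.15), SESN1 (-0.20), TNFRSF10B (-0.46) and ZMAT3 (-0.057), and in T58A S62A for MDM4 (0.0702). Of these, only TNFRSF10B passed the test on that scale.

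CYC065 gave 16 higher and 20 lower calls, 32 and 5 as deposited, and 34 and 2 with libraries centred on their median (14 to 17 and 19 to 21 without 1 library). As deposited the sign turned in SH-EP for CDKN1A (1.25), FAS (0.086), TNFRSF10B (0.66) and TP53I3 (0.62), and over the MYCN lines for MDM2 (0.93), FAS (0.0934) and TP53I3 (0.58). With centring these were 1.38, 0.22, 0.80 and 0.75 in SH-EP, and 1.10, 0.26 and 0.75 over the MYCN lines. Neither FAS value as deposited passed the test, and CDKN1A in SH-EP had not passed with spike-ins (-0.02).

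The response of MYCN lines against SH-EP gave 0 higher and 4 lower calls, 4 and 8 as deposited or centred, 1 and 1 with loess, 1 higher with a pseudocount of 1, and 1 lower with spike-ins of at least 50 FPKM (0 to 1 and 2 to 5 without 1 library). GDF15, ZMAT3 and SESN1 under CYC065 in SH-EP and over the MYCN lines kept direction and call under all alternatives run. The causes were not tested, and without read counts the depth limit of the lower genes is unknown. Shares of all tested genes were computed only for the 2 scales of the main fit. Counts of the 9 genes under the other alternatives, here and above, therefore have no share of all genes beside them. They show only how far the calls depend on the processing.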
